A study of Mus musculus with 8 samples.

Results

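Cell cycle genes were followed here by the phase in which their products act. The cells were sorted embryonic amygdala neurons from controls and knockouts of the zinc finger factor gene Tshz1. The set holds 49 of the 32543 genes in the expected-count matrix. Of these, 19 act in DNA replication and S phase, 25 act in G2 and mitosis, and 5 are the 3 D cyclins and 2 cyclin-dependent kinase inhibitors that govern the decision to enter or leave the cycle. The genes were taken by name from this grouping, without a threshold on their values, and all 49 passed the filter on low counts that left 14157 genes for testing.

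RNA came from intercalated cells, clusters of GABAergic neurons that lie between the main nuclei of the amygdala. All mice were of an outbred background and all libraries were from E16.5. The 4 control libraries were from Tshz1GFP/+ embryos, which carry 1 GFP allele of Tshz1, and the 4 knockout libraries were from Tshz1GFP/RA embryos, which carry the GFP allele and the RA allele. Every library, controls included, therefore comes from cells with a GFP allele, sorted by flow cytometry for GFP from dissected ventrolateral tissue of the caudal telencephalon. Each library pooled embryos of 1 genotype, so that p-values measure the spread between pools, and its cDNA was amplified before sequencing. Library titles begin with NX, NY, QT or RM, and each of these prefixes occurs on 1 control and 1 knockout library. Its meaning is not given in the labels, and the study's design text speaks of triplicates where 4 libraries of each genotype are present. Values by library are given below in the order NX, NY, QT, RM.

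Cells that cycle pass from G1 into S phase when D cyclins with Cdk4 or Cdk6 release E2F factors from the retinoblastoma proteins, and E2F then drives the genes for replication. The genes of G2 and mitosis come on later, many of them through a promoter element called the cell cycle genes homology region (CHR), which is bound by the repressive DREAM complex in resting cells and by B-MYB and FOXM1 complexes in cycling cells. Cdkn1b (p27) and Cdkn1c (p57) inhibit cyclin-dependent kinases and are known for their part in the cell cycle exit of neurons. Neurons are postmitotic, and in the embryonic ventral telencephalon the cycling cells are mostly progenitors of the ganglionic eminences and some glial and endothelial cells.

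The libraries held between 5785612 (control RM) and 14535867 (control NX) expected counts, and 3 counts corresponded to between 0.186 and 0.545 CPM (counts scaled to the library's total with TMM factors, which adjust for composition). The sorted cells had neuronal profiles: the summed level of 13 postmitotic neuron markers was between 8241 and 10628 CPM in all 8 libraries, and that of 9 intercalated cell markers, Tshz1 included, was 3515, 2102, 2604 and 2807 CPM in controls and 2096, 1748, 2534 and 1907 CPM in knockouts. The intercalated sum was lower in the knockout in all 4 prefixes. In QT, however, the sum fell by less than Tshz1 alone did, so its direction there rests on the targeted gene. Of the 9 genes, 8 were fitted lower (median -0.77 on the log2 scale), of which Tshz1 alone was called. Foxp1 was the exception, higher in all 4 prefixes in CPM (log2 fold change 0.74, SE 0.24). In TPM, which also scales for transcript length, Foxp1 was lower in the knockout in NX (109.2 to 100.1) and RM (80.6 to 68.2). Tshz1 itself, the targeted gene, was at 492, 240.0, 457 and 337 CPM in the controls and at 121, 61.6, 78.1 and 55.9 CPM in the knockouts. It fell in all 4 prefixes and the groups did not overlap (log2 fold change -2.27, SE 0.30, edgeR quasi-likelihood test, adjusted p = 0.0388, n = 4 against 4). Its adjusted p was above 0.05 when any 1 library other than knockout NX or control NY was left out, with log2 fold changes between -2.32 and -2.12. That test called 5 of the 14157 genes tested (0.0353%) at an adjusted p under 0.05, of which 1 was higher (0.00706%) and 4 were lower (0.0283%) in the knockout, and none of the 49 cell cycle genes was among them. Before adjustment, 241 genes (1.7%) were higher and 271 (1.91%) were lower at p under 0.05. Counts were whole numbers in all 8 libraries for 11 S phase genes, 15 G2/M genes and 3 of the D cyclins and inhibitors. The rest hold fractions, from reads the authors' program divided between genes, and are less certain. Tyms, Rrm1, Slbp, Ccne2, Cdt1, Ccna2, Cenpf, Birc5, Ube2c, Cdc20, Hmmr, Ccnd1 and Ccnd3 were fractional in every library. The library kit does not mark strand, and exons of 14 of the 49 genes overlap a gene on the other strand, whose reads may be counted with them. These are Mcm7 (Ap4m1 and Cops6), Ccne2 (Ints8), Cdc45 (Ufd1), Gins2 (Gse1), Slbp (Gm10459), Ccna2 (Exosc9), Plk1 (Gm44985), Nusap1 (Oip5), Ube2c (Tnnc2), Cdc20 (Elovl1), Ccnd1, Ccnd2, Ccnd3 and Cdkn1c (Gm44732).

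The promoters of the 2 phases differ in letters, and a few are shown because they carry the elements by which the phases are usually told apart. RefSeq promoter windows (GRCm38.p6, 250 bases before to 50 after each start) were matched for 38 of the 49 genes, Casc5 under its current symbol Knl1. Each stretch below is 120 bases that lie before the start, written 5′ to 3′ on the gene's strand. Capitals mark a CHR match (TTTGAA or TTCGAA) in Ube2c, Kif11 and Cdk1 and an E2F match (TTTCGCGC, TTTGGCGC or TTTCCCGC) in Mcm6 and Mcm5, each searched on both strands, and matches that overlap are joined.
Ube2c: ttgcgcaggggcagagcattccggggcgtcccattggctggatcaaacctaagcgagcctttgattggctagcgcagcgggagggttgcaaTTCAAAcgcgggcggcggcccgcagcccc
Kif11: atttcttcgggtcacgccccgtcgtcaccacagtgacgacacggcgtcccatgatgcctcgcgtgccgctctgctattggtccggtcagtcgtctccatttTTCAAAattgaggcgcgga
Cdk1: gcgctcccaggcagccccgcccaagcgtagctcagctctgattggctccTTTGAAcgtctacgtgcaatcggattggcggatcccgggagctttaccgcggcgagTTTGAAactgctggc
Mcm6: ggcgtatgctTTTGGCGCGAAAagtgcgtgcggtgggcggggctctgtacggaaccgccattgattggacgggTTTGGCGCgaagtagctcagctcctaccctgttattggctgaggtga
Mcm5: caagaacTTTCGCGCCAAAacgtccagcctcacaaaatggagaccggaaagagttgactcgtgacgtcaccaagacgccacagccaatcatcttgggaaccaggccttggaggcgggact

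The Ube2c stretch lies at chr2:164769809-164769928 (plus strand), that of Kif11 at chr19:37376262-37376381 (plus strand), that of Cdk1 at chr10:69352913-69353032 (minus strand), that of Mcm6 at chr1:128359706-128359825 (minus strand) and that of Mcm5 at chr8:75109349-75109468 (plus strand). The CHR match begins 29 bases before the start in Ube2c, the ubiquitin-conjugating enzyme of the anaphase-promoting complex, and 19 bases before it in Kif11, a spindle motor. Cdk1, the mitotic kinase, holds 2 CHR matches, which begin 71 and 15 bases before its start. In Mcm6 and Mcm5, subunits of the replicative helicase, the first block of capitals joins 2 overlapping E2F matches on opposite strands.

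A CHR match was present in 17 of 21 G2/M windows (81.0%), in 3 of 17 S phase windows (17.6%) and in 1660 of the 12339 windows of tested genes (13.5%). The E2F letters had the opposite distribution, with 7 of 17 S phase windows (41.2%), 1 of 21 G2/M windows (4.76%, Cdk1) and 414 of 12339 windows of tested genes (3.36%). The CCAAT box, which NF-Y binds, was found in 76.5% of S phase windows and 76.2% of G2/M windows, against 38.0% of the windows of tested genes. Over all 32851 windows of the table, 19.2% held a CHR, 1.84% an E2F and 37.4% a CCAAT match. CCAAT was also searched on both strands, and overlaps between different motifs were not removed. These matches describe the windows and are not measured binding sites.

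**Figure D1:**
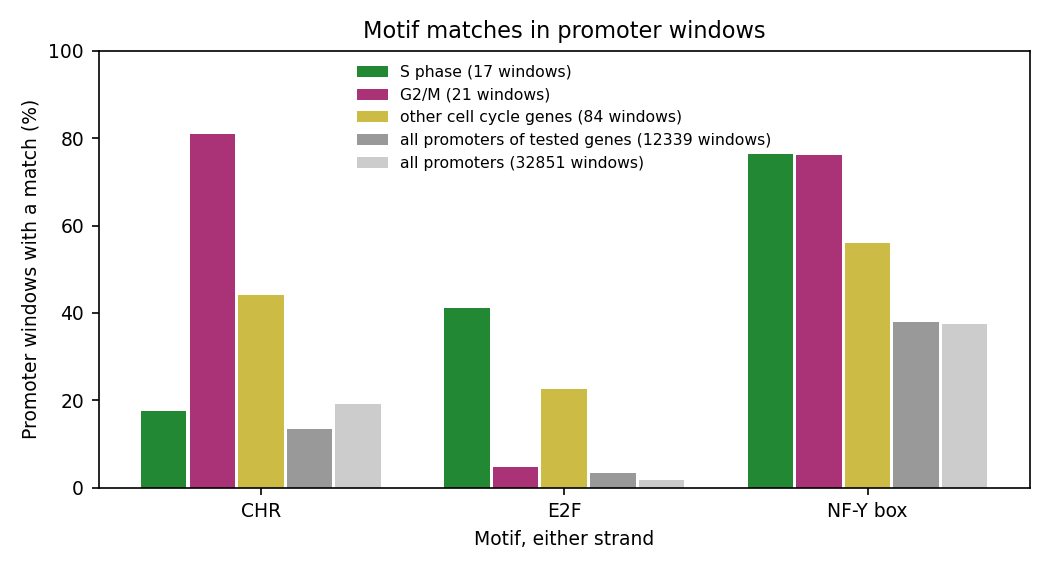
Percent of RefSeq promoter windows that hold each motif, for the S phase, G2/M and other cell cycle genes, all tested genes and all promoters. CHR matches are most frequent in the G2/M windows (81.0%) and E2F matches in the S phase windows (41.2%), and the NF-Y box is about as frequent in both.

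In the control cells the 49 genes spanned a wide range of levels per transcript length, given here in TPM, a unit scaled for transcript length (mean ± SD, n = 4). Ube2c was highest at 123 ± 85.9 TPM, followed by the sliding clamp gene Pcna at 99.98 ± 10.1 TPM and cyclin D2 (Ccnd2) at 69.3 ± 43.9 TPM. Each of these 3 exceeded the next in order by less than the larger of the SDs of the pair. Ube2c and Ccnd2 varied widely between the control libraries, whereas Pcna varied little. The topoisomerase Top2a followed at 37.4 ± 28.6 TPM, the helicase subunit Mcm7 at 37.2 ± 11.99 TPM, the proliferation antigen Mki67 at 34.2 ± 25.04 TPM and Cdkn1b at 27.9 ± 9.17 TPM. At the low end were Ccne2 at 1.45 ± 1.02 TPM, Cdc6, which loads the helicase, at 1.39 ± 1.13 TPM and Ccne1 at 0.662 ± 0.379 TPM, so the E cyclins that open S phase were the scarcest transcripts together with Cdc6.

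Knockout libraries were compared with control libraries, gene by gene, to ask whether the knockout genotype goes with another level of cell cycle transcripts. G2/M genes were higher in the knockout on average, by a median log2 fold change of 1.07, and S phase genes by a median of 0.53, against -0.01 over all genes tested. All 25 G2/M genes and 17 of 19 S phase genes were fitted higher, as were 49.4% of all genes tested. No single gene passed the threshold in this fit: in edgeR's quasi-likelihood test the adjusted p of each of the 49 genes was 1.00, and the 4 libraries of each genotype spread widely. In RNA from pools of cells, a larger number of cycling cells and more of these transcripts per cell cannot be told apart.

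**Figure D2:**
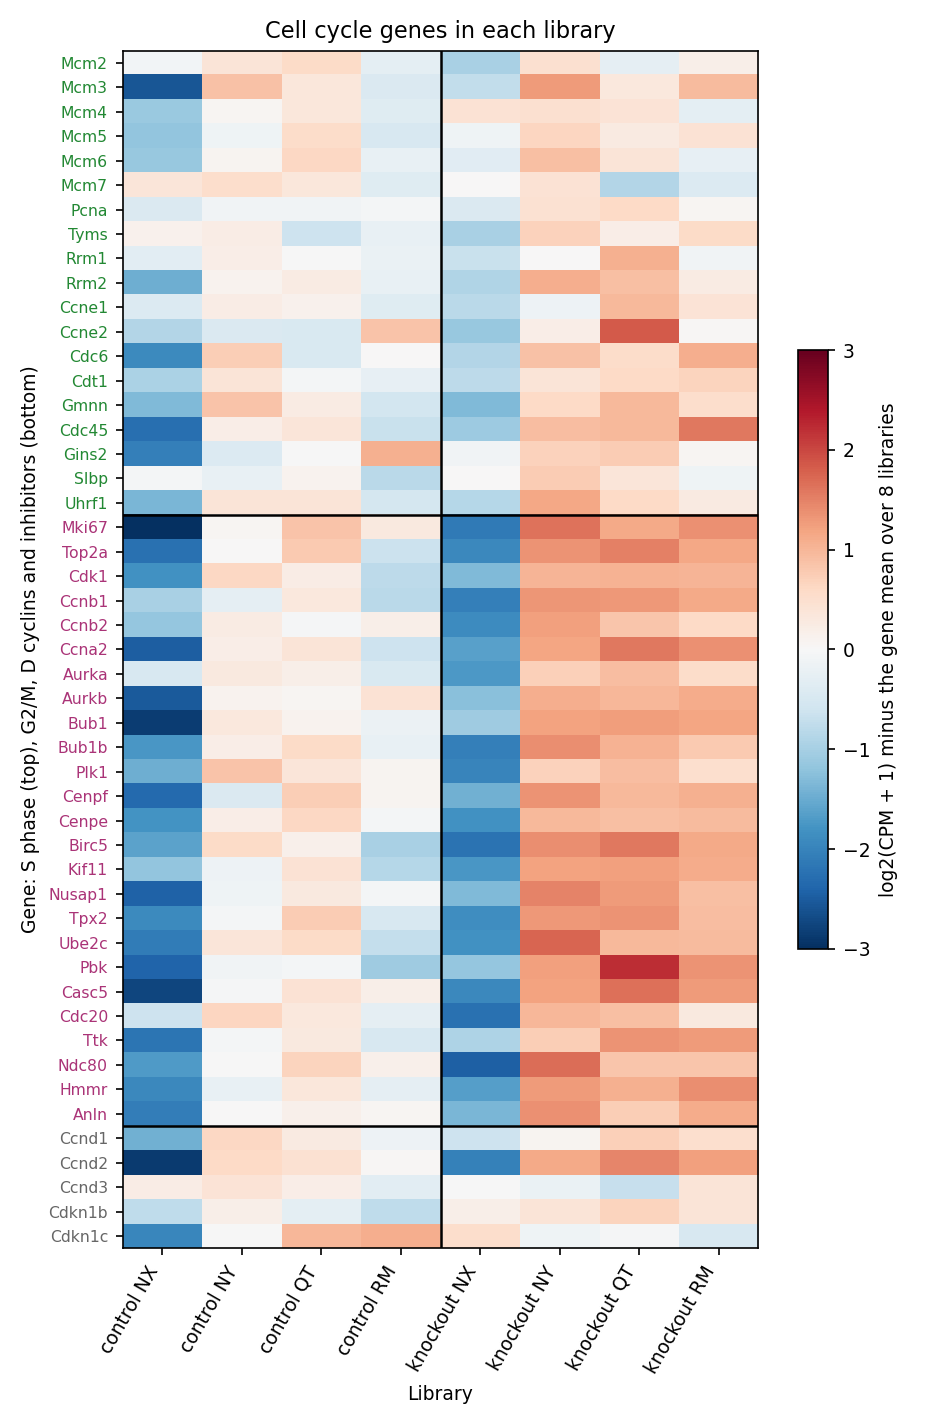
Each row is 1 of the 49 genes and each column 1 library. Colour shows log2(CPM + 1) minus that gene's mean over the 8 libraries, clipped at 3 in each direction. Both NX columns are low in nearly all G2/M genes, and the other 3 knockout columns are the highest in 23 of the 25.

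Among the S phase genes, the 6 subunits of the MCM helicase did not share a direction. Mcm4 was at 8.06, 19.4, 23.7 and 14.2 CPM in the controls and 25.3, 26.3, 24.96 and 14.97 CPM in the knockouts. In CPM it was higher in all 4 prefixes although the groups overlapped. Its log2 fold change was 0.49 (SE 0.35), with an unadjusted p of 0.184 in edgeR. In TPM, Mcm4 was lower in the knockout in RM (6.30 to 5.07). Mcm7 had values of 47.5, 52.9, 46.4 and 27.99 CPM in the controls and 36.7, 49.4, 19.5 and 27.1 CPM in the knockouts. It was the 1 S phase gene lower in all 4 prefixes, with a log2 fold change of -0.40 (SE 0.30), and its widest gap was in QT. Mcm5 stood at 4.53, 10.4, 17.4 and 7.996 CPM in controls against 10.5, 18.6, 14.00 and 15.97 CPM in knockouts, and was lower in QT alone. For Mcm6 the levels were 7.81, 19.5, 29.00 and 15.6 CPM and 14.4, 35.2, 24.5 and 15.3 CPM, higher in NX and NY and lower in QT and RM. Mcm2 was fitted lower (-0.27 on the log2 scale), with 2 prefixes in each direction. Mcm3 had 0 counts in control NX, which allows up to 0.186 CPM, and 9.99 CPM in control NY, so the control spread exceeded the difference of means (4.99 ± 4.27 and 8.22 ± 4.73 CPM, mean ± SD, n = 4 each).

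Among the genes for nucleotides and the replication fork, Pcna was at 47.2, 59.5, 59.6 and 60.9 CPM in controls and 46.6, 88.3, 96.5 and 66.7 CPM in knockouts. In CPM, NX was the prefix without an increase, and the other 3 knockout libraries lay above every control library. For Pcna, edgeR fitted a change of 0.39 on the log2 scale (SE 0.24, unadjusted p 0.132). This order depends on the scaling. In TPM, Pcna was higher in the knockout in NX (95.96 to 106.87), NY and QT and lower in RM (92.65 to 75.56). Knockout RM was then below every control library. Rrm2, the regulated subunit of ribonucleotide reductase, was higher in all 4 prefixes, with 4.34, 14.8, 16.45 and 11.6 CPM in controls and 6.88, 30.3, 26.3 and 16.3 CPM in knockouts. Its partner Rrm1 had 40.9, 58.99, 51.3 and 44.7 CPM in controls and 31.9, 52.2, 109 and 48.1 CPM in knockouts, so its higher mean rested on knockout QT, and without that library its log2 fold change was -0.16. Thymidylate synthase (Tyms) was higher in 3 of 4 prefixes, at 31.5 ± 8.11 CPM in controls and 40.2 ± 17.2 CPM in knockouts (mean ± SD, n = 4 each). Slbp, which binds histone mRNA, had the smallest unadjusted p of the S phase genes in edgeR (0.107), with 19.5, 17.3, 21.9 and 11.3 CPM in controls, 20.7, 35.1, 26.3 and 18.5 CPM in knockouts and a log2 fold change of 0.52 (SE 0.30). Slbp was higher in all 4 prefixes, and the groups overlapped.

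Genes that license or fire origins were scarce, which limits what can be read from them. Cdc6 was higher in all 4 prefixes, with 0.310, 7.25, 2.60 and 3.998 CPM in controls and 1.70, 8.12, 6.24 and 9.48 CPM in knockouts, and control NX held 5 counts. Cdt1, the other licensing factor, was higher in all 4 prefixes by small steps in NX and NY, at 2.42, 7.70, 5.36 and 4.54 CPM against 2.86, 7.70, 8.98 and 9.48 CPM. Its inhibitor geminin (Gmnn) had 0 counts in both NX libraries, and otherwise 3.55, 1.99 and 0.727 CPM in controls and 2.82, 3.96 and 2.66 CPM in knockouts. Ccne1 was under 3 CPM in every library and Ccne2 was highest in knockout QT at 11.7 CPM, and each was higher in 2 prefixes and lower in 2. Cdc45, a part of the active helicase named after its values were seen, had the largest S phase log2 fold change (1.36, SE 0.85), higher in all 4 prefixes, at 0.124, 5.11, 5.89 and 2.36 CPM in controls and 1.50, 9.19, 9.44 and 14.97 CPM in knockouts. The remaining S phase genes, Gins2 (helicase) and Uhrf1 (maintenance of DNA methylation), had log2 fold changes of 0.46 (SE 0.69) and 0.62 (SE 0.51), with Gins2 lower in RM. Across the 19 S phase genes, 7 were higher and 1 was lower in all 4 prefixes in CPM, where 8.32% and 8.49% of all tested genes were. In TPM, 6 were higher in all 4 prefixes, beside 5.48% of tested genes. In CPM, none of the 19 was without overlap between the groups, against 1.13% of tested genes with the knockout higher. None of the 19 had an unadjusted p under 0.05 in edgeR. DESeq2, which called 39 genes (0.275%) at an adjusted p under 0.05, called none of the 49.

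In CPM, 23 of the 25 G2/M genes, all but Plk1 and Cdc20, were low in both NX libraries, intermediate in the other controls and highest in the other knockouts. This order depends on the scaling: without composition factors the other knockouts were above the other controls for 17 of the 25, and in TPM for 9 (Ccnb1, Ccna2, Aurkb, Bub1, Pbk, Casc5, Ttk, Hmmr and Anln). Mki67, which coats mitotic chromosomes, was at 19.1, 192, 339 and 226 CPM in controls and 42.1, 574, 409.8 and 477 CPM in knockouts. Top2a, which untangles sister DNA, was at 22.2, 109.9, 186 and 69.4 CPM in controls and 27.6, 279.6, 309.8 and 242 CPM in knockouts. In both genes every prefix had the knockout higher, and yet knockout NX lay below 3 of the 4 control libraries, so the groups overlapped. The fitted changes were 0.96 (SE 0.74) for Mki67 and 1.14 (SE 0.65) for Top2a, with unadjusted p of 0.219 and 0.103 in edgeR. In TPM, knockout RM was below control QT in both genes, at 54.6 against 65.4 TPM for Mki67 and 60.2 against 76.4 TPM for Top2a.

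Of the kinase and cyclins that drive mitosis, Cdk1 was at 2.36, 17.2, 12.7 and 5.82 CPM in controls and 3.68, 22.9, 23.1 and 22.96 CPM in knockouts. The knockout libraries NY, QT and RM were nearly equal, and all were above the 4 controls. Ccna2 (cyclin A2) was at 7.63, 53.8, 61.3 and 29.99 CPM in controls and 14.3, 107, 142 and 121 CPM in knockouts, higher in all 4 prefixes. Ccnb1 (cyclin B1, chr13:100778650-100786570, minus strand) had 12.8, 21.5, 32.9 and 14.5 CPM in controls and 5.58, 66.7, 66.1 and 58.1 CPM in knockouts. Knockout NX was the lowest of its 8 values, below control NX, and the other knockouts were all above the controls, which gave a log2 fold change of 1.26 (SE 0.57) and an unadjusted p of 0.0475 in edgeR. Ccnb2 also had both NX libraries lowest and the other knockouts above every control, with means of 8.53 ± 3.45 CPM and 14.01 ± 8.89 CPM (SD, n = 4 each).

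Spindle and checkpoint genes varied in size more than in pattern. Bub1, a checkpoint kinase, was at 1.36, 20.2, 17.4 and 14.2 CPM in controls and 7.15, 38.5, 39.6 and 37.4 CPM in knockouts. Aurkb, the kinase of the chromosomal passenger complex, was at 1.18, 12.4, 12.2 and 15.8 CPM in controls and 4.22, 25.8, 24.1 and 26.1 CPM in knockouts. Both were higher in all 4 prefixes, and their control NX values were the lowest of all. Ube2c had 11.5, 67.8, 77.8 and 31.6 CPM in controls and 14.1, 179, 104 and 102 CPM in knockouts, and the kinetochore protein gene Cenpf 57.8 ± 39.3 and 111 ± 60.9 CPM (mean ± SD, n = 4 each). Aurka, the centrosomal kinase, was higher in 3 prefixes (0.52 on the log2 scale, SE 0.55). The smallest differences were those of Cdc20, the activator of the anaphase-promoting complex, and the mitotic kinase Plk1. Cdc20 had 7.19, 18.9, 14.8 and 9.45 CPM in controls and 1.70, 24.2, 22.5 and 14.5 CPM in knockouts. Plk1 had 3.47, 21.3, 14.8 and 11.99 CPM in controls and 2.11, 18.9, 22.5 and 16.47 CPM in knockouts, higher in QT and RM and lower in NX and NY, and its log2 fold change of 0.21 became -0.11 without control NX and -0.05 without knockout QT.

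The largest G2/M difference was in Pbk, a mitotic kinase gene (chr14:65805837-65817822, plus strand), at 2.36, 15.5, 16.1 and 7.45 CPM in controls and 7.01, 41.2, 81.9 and 44.6 CPM in knockouts. It was higher in all 4 prefixes, and knockout NX alone overlapped the controls. Its log2 fold change was 2.07 (SE 0.66), with an unadjusted p of 0.00844 and an adjusted p of 1.00 over all genes in edgeR. Ttk, the spindle checkpoint kinase also known as Mps1 and named after its values were seen (chr9:83834689-83872389, plus strand), was at 2.05, 12.4, 15.9 and 8.90 CPM in controls and 6.26, 22.4, 34.6 and 32.9 CPM in knockouts, with a log2 fold change of 1.29 (SE 0.59) and an unadjusted p of 0.0491 in edgeR. The other 10 G2/M genes (Anln, Birc5, Bub1b, Casc5, Cenpe, Hmmr, Kif11, Ndc80, Nusap1 and Tpx2) had log2 fold changes between 0.63 (Cenpe, a kinetochore motor) and 1.28 (Birc5, of the passenger complex). Kif11 was at 18.8, 39.4, 59.9 and 23.8 CPM in controls and 12.4, 103, 104 and 97.5 CPM in knockouts, with knockout NX lowest of all 8 and the other knockouts above every control. Pbk, Ccnb1 and Ttk were the 3 of 25 G2/M genes with an unadjusted p under 0.05, where 1.7% of tested genes were higher at that level, and no G2/M gene had groups without overlap. In all 4 prefixes together, 15 of 25 were higher, against 8.32% of tested genes.

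**Figure D3:**
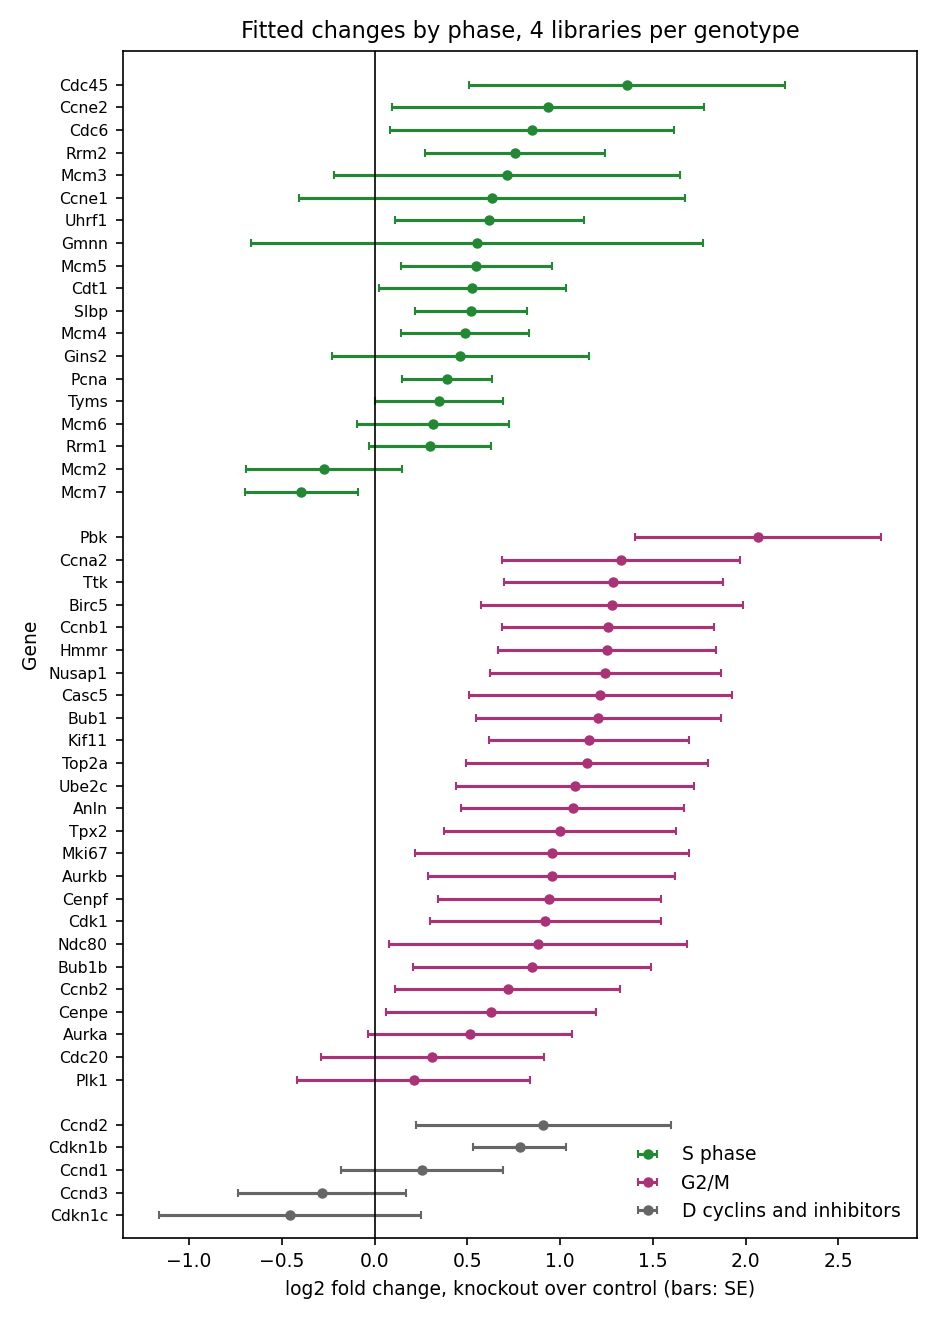
Fitted log2 fold changes, knockout over control, with SE bars for the 49 genes grouped by phase. All 25 G2/M genes lie above 0, from 0.21 (Plk1) to 2.07 (Pbk), while 2 S phase genes and 2 of the D cyclins and inhibitors lie below 0.

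The D cyclins and the inhibitors did not share a direction. Ccnd2, the D cyclin that many neural progenitors use, was at 27.8, 317, 290.2 and 216 CPM in controls and 50.6, 466, 587 and 496 CPM in knockouts. It was higher in all 4 prefixes and lowest in the NX libraries, as the G2/M genes were, with a log2 fold change of 0.91 (SE 0.69) and an unadjusted p of 0.208 in edgeR. Ccnd1 had 6.20, 29.3, 22.5 and 16.7 CPM in controls and 11.7, 19.9, 31.2 and 26.8 CPM in knockouts, lower in NY and higher elsewhere, and its log2 fold change of 0.26 became -0.04 without control NX. Ccnd3 was at or under 6.74 CPM in every library and was fitted lower (-0.28, SE 0.45).

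Cdkn1b (chr6:134920401-134925513, plus strand) was at 31.1, 60.1, 43.00 and 31.1 CPM in controls and 60.1, 69.9, 84.9 and 69.9 CPM in knockouts. All 4 knockout libraries were above every control library, although knockout NX and control NY are equal as rounded here, so the groups nearly touch. In CPM it was the 1 gene of the 49 whose groups did not overlap, where 1.13% of all tested genes were higher without overlap. Without composition factors and in TPM its groups overlapped, with knockout RM at 30.3 TPM against 38.7 TPM in control NY, although it was higher within all 4 prefixes in TPM too. In TPM, none of the 49 was without overlap, and 0.509% of tested genes were higher without it. The means were 41.3 ± 13.7 CPM in controls and 71.2 ± 10.2 CPM in knockouts (SD, n = 4 each), with a log2 fold change of 0.78 (SE 0.25), an unadjusted p of 0.00838 and an adjusted p of 1.00 in edgeR. Its level in control NX matched that in control RM, so it did not have the low NX control of the G2/M genes. Cdkn1c had 0.496, 4.81, 10.7 and 11.4 CPM in controls and 7.49, 4.31, 4.72 and 3.16 CPM in knockouts, so it was higher in NX and lower in the other 3 prefixes.

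To compare phases between libraries, the log2 CPM of the genes of a phase was averaged into a score. The S phase score was 1.78, 3.52, 3.43 and 3.02 in controls and 2.39, 3.96, 3.93 and 3.65 in knockouts, which gave means of 2.94 ± 0.80 and 3.48 ± 0.74 (SD, n = 4 each). Within prefixes, knockout minus control was 0.61, 0.44, 0.50 and 0.63. The NX step rested largely on scarce genes. Its largest gene differences were those of Mcm3 (3.92), Gins2 (2.87), Cdc45 (2.45) and Cdc6 (1.94). These had 0, 8, 2 and 5 counts in control NX. On a log2(TPM + 1) scale the S phase steps were 0.45, 0.47, 0.41 and 0.17, smallest in RM. The G2/M score was 2.40, 4.65, 4.91 and 4.20 in controls and 2.61, 5.79, 5.74 and 5.56 in knockouts, with means of 4.04 ± 1.13 and 4.93 ± 1.54. Within prefixes the G2/M differences were 0.21, 1.13, 0.83 and 1.36, smallest in NX. Both scores were higher in the knockout in 4 of 4 prefixes, and the difference of group means, 0.54 for S phase and 0.88 for G2/M, was smaller than the SD within either group. The scores carry no test, since the genes were chosen with results of these libraries known.

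**Figure D4:**
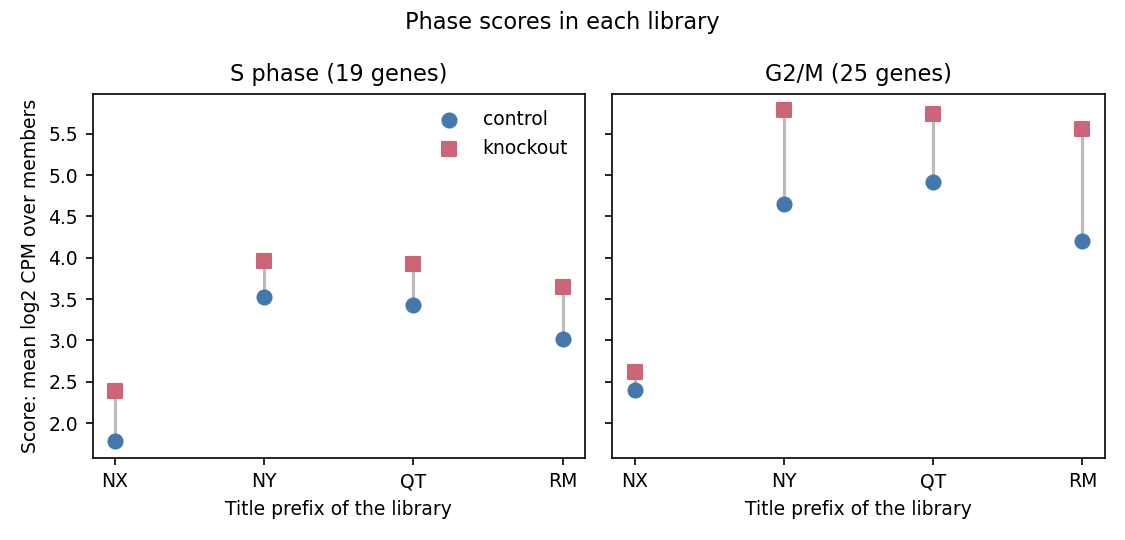
Mean log2 CPM of the S phase and G2/M genes in each library, with control and knockout of a prefix joined by a line. In every prefix the knockout point is above the control point, and both NX points lie far below the others.

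Gene by gene within prefixes, G2/M genes were higher in the knockout in 15 of 25 cases in NX, 24 in NY, 25 in QT and 25 in RM, where 49.5%, 50%, 48.5% and 50.7% of all tested genes were. They were over 2-fold higher in 6, 16, 8 and 18 cases. S phase genes were higher in 11, 15, 14 and 15 of 19 cases. In TPM, G2/M genes were higher in 17, 24, 25 and 24 cases and S phase genes in 12, 15, 14 and 12, where 56.9%, 54.9%, 48.8% and 27.4% of all tested genes were, so RM was the prefix in which TPM was lower for most genes. Summed in TPM, G2/M genes came to 139.7, 552, 776 and 334 TPM in controls and 172, 1349.5, 1336 and 698 TPM in knockouts. S phase genes summed to 261, 296, 337 and 222 TPM and 278, 443, 467 and 204 TPM, which in RM is lower in the knockout, unlike the score. The G2/M score exceeded the S phase score by 0.62, 1.13, 1.48 and 1.18 in controls and by 0.23, 1.83, 1.81 and 1.91 in knockouts, so this gap was wider in the knockout in NY, QT and RM and narrower in NX.

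In CPM, the G2/M groups overlapped mainly through knockout NX, which was below controls NY, QT and RM for 25 of 25 genes. Control NX was the lowest control for 25 of 25 G2/M genes and 15 of 19 S phase genes, and for 29.7% of all tested genes. Knockout NX was the lowest knockout for 25 of 25 and 16 of 19, and for 28.1% of all tested genes. With both NX libraries left out, 23 of 25 G2/M genes had every knockout library above every control library, against 5.56% of tested genes, the exceptions being Plk1 and Cdc20. So did 3 of 19 S phase genes (Pcna, Cdt1 and Cdc45), and Ccnd2 and Cdkn1b. Cdkn1c went the other way, with every knockout library below every control library, as in 6.24% of tested genes. It was not separated under the other scalings. Under other scalings, the G2/M count without NX was 23 of 25 with RLE size factors, 17 without composition factors and 9 in TPM, where 5.88%, 3.81% and 2.7% of tested genes were separated. In TPM the separated S phase gene was Cdc45, and Ccnd2 remained while Cdkn1b did not. Leaving out the NY, QT or RM libraries in place of NX gave 0 of 25 G2/M genes, beside 3.6%, 2.66% and 3.77% of tested genes. The 0 was fixed beforehand, because each of these subsets keeps knockout NX, which lay below the controls outside NX.

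NX is set apart here because it was lowest for these same genes, so smaller p-values without it follow in part from that choice. The genes also share their libraries and are not separate observations. Without the NX libraries, 22 of 25 G2/M genes and 3 of 18 S phase genes tested had an unadjusted p under 0.05 in edgeR with the knockout higher. Over all 14031 genes tested this share was 3.2%. All 25 G2/M genes were fitted higher, beside 50.2%. None passed adjustment, where 1 of the 14031 (0.00713%) was called higher. The smallest adjusted p of edgeR in this fit was 0.139, for Pbk, whose log2 fold change was 2.09 (SE 0.37). Ccnb1 gave 1.46 (SE 0.31), Ccna2 1.35 (SE 0.29) and Mki67 0.95 (SE 0.27). Over the 3 remaining libraries of each group, the G2/M score was 4.59 ± 0.36 in controls and 5.70 ± 0.12 in knockouts (SD, n = 3 each), and the S phase score was 3.32 ± 0.27 and 3.85 ± 0.17. Leaving out control NX alone lowered the difference in score to 0.34 for G2/M and 0.16 for S phase, and leaving out knockout NX alone raised it to 1.65 and 0.90. Without control NX and knockout QT, the differences were 0.07 and 0.01.

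Some markers of other cells were also low in the NX libraries. The summed level of 16 neural progenitor markers was 404, 1093, 1002 and 1072 CPM in controls and 440.3, 1099, 819 and 1344 CPM in knockouts, with both NX libraries lowest and the knockout not consistently above the control. Fabp7 weighed heavily in this sum, at 20.5, 485, 191 and 412 CPM in controls, as did Dlx1 at 166, 191, 318 and 273 CPM. In QT, where the sum was lower in the knockout, Dlx1 was at 318 CPM in the control and 179 CPM in the knockout. Of the 15 progenitor markers tested, 5 were fitted higher and 10 lower in the knockout. Sox9 and Egfr were higher and Nes was lower in all 4 prefixes. For Sox9 the groups did not overlap in CPM (log2 fold change 1.21, SE 0.45), where 1.13% of tested genes were higher without overlap. In control NX, Hes1 and Gsx1 were at 0, and in knockout NX, Hes1. Zeros were not confined to NX, since Hes1 was also at 0 in control RM and Gsx1 in control QT. The 13 microglia markers summed to 7.87, 127, 63.6 and 187 CPM in controls and 13.8, 82.9, 36.5 and 69.2 CPM in knockouts, lower in the knockout in NY, QT and RM. All 11 tested microglia markers were fitted lower. Tmem119, C1qa and Trem2 were at 0 in control NX, and Ptprc and Tmem119 in knockout NX. Knockout QT also had 2 of the 13 at 0, and knockout NY, control RM and knockout RM had 1 each.

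The 5 oligodendrocyte precursor markers summed to 0.558, 58.03, 33.5 and 41.98 CPM in controls and 2.79, 36.6, 15.2 and 53.1 CPM in knockouts. Sox10 and Cspg4 were at 0 in control NX, and Sox10 also in knockout QT. The 12 vascular and meningeal markers came to between 3.04 and 60.4 CPM in controls and between 3.81 and 15.1 CPM in knockouts. Of the 12, 8 were at 0 in control NX, Cdh5, Pecam1 and Cldn5 among them. Knockout NX and knockout QT each had 5 at 0. The 9 pallial glutamatergic markers summed to 31.4, 302, 329.6 and 195 CPM in controls and 198, 230.1, 449.7 and 284 CPM in knockouts, lowest in control NX. Erythroid markers ranged from 0.765 to 275 CPM in controls and from 0.913 to 141 CPM in knockouts, highest in the NY libraries and in control NX above controls QT and RM. The part of these cells, and of the lower intercalated cell markers, in the differences of the cell cycle genes was not tested.

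**Figure D5:**
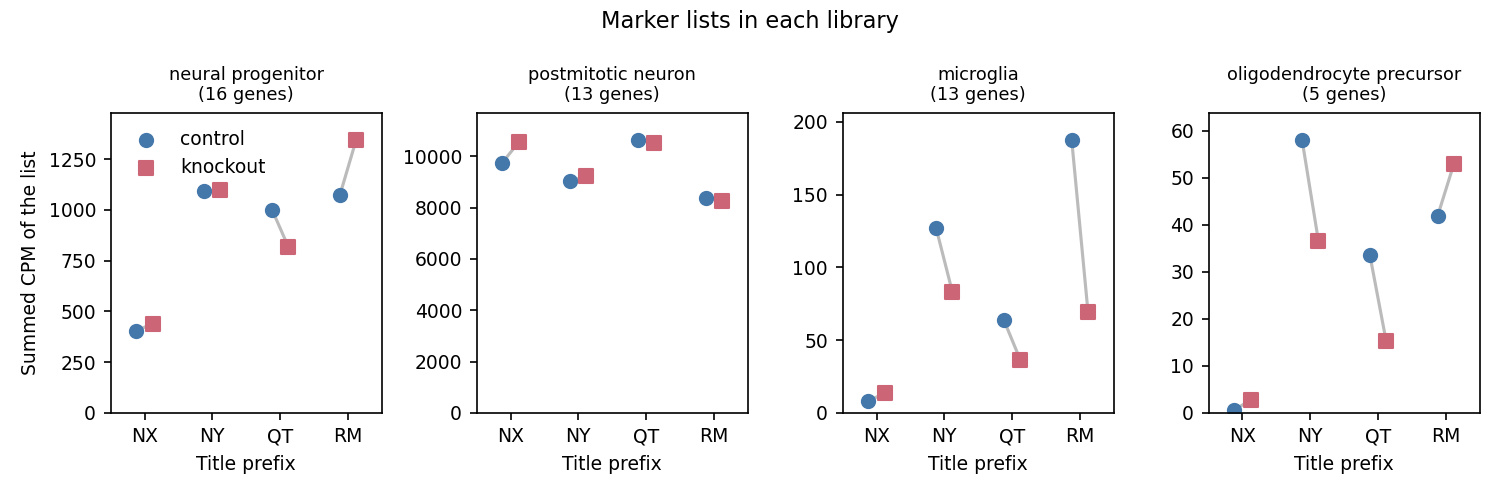
Summed CPM of 4 marker lists in each library, by title prefix, with control and knockout joined. The progenitor, microglia and oligodendrocyte precursor sums are lowest in NX, while the neuron sum is between 8241 and 10628 CPM throughout.

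The other genes of the cell cycle, 83 with a row and 80 tested, were fitted higher in the knockout in 66 cases and lower in 14, with a median log2 fold change of 0.56. At an unadjusted p under 0.05 in edgeR, 8 were higher and none was lower, beside 1.7% and 1.91% of tested genes, and none passed adjustment. Rbl1, the retinoblastoma-related protein p107, had the smallest p (0.00602), at 10.6, 10.1, 7.42 and 8.90 CPM in controls and 11.1, 17.7, 29.2 and 22.5 CPM in knockouts. Gins4, a part of the active helicase, was at 20.6, 21.8, 20.2 and 19.1 CPM in controls and 28.8, 29.6, 43.8 and 26.95 CPM in knockouts, with an unadjusted p of 0.0175 in edgeR. In both genes every knockout library was above every control library in CPM. Ect2, which directs the cleavage furrow, was at 2.11, 9.99, 12.5 and 5.82 CPM in controls and 4.43, 25.6, 34.7 and 32.3 CPM in knockouts, with groups that overlapped through knockout NX. Cks1b was also higher without overlap (11.8 ± 0.869 and 19.00 ± 4.28 CPM, mean ± SD, n = 4 each). The repressor E2f4, a DREAM subunit, was the 1 gene lower without overlap, at 12.2, 12.8, 16.53 and 12.5 CPM in controls and 9.33, 6.21, 11.3 and 9.65 CPM in knockouts; Cks1b and E2f4 were chosen after their values were seen. Groups without overlap were found in 1.13% of all tested genes with the knockout higher and in 1.46% with it lower. In TPM, Rbl1 and Cks1b were still without overlap, while the groups of Gins4 and E2f4 overlapped. Rbl1, Gins4 and Cks1b did not have the low NX controls of the G2/M genes.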

How the data were processed

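The submitters deposited expected counts and TPM per gene for 8 bulk RNA-seq libraries. The submitters' processing notes name mm10, RSEM 1.2.22, Bowtie2 and Trimmomatic 0.33. RSEM divides reads that match several genes, so expected counts need not be whole. The deposited TPM values are scaled for transcript length by the authors. The matrices and the files of the single samples held the same values. Expected counts were rounded, filtered with filterByExpr (14157 of 32543 genes) and tested with edgeR 4.0.16 (R 4.3.3): TMM factors, quasi-likelihood fit, 4 control against 4 knockout libraries, no block, Benjamini-Hochberg adjustment over all genes tested, threshold 0.05. CPM used TMM-scaled totals. Scores averaged log2 CPM (prior count 2). The limits given for 0 counts cover counting error only. Alternatives used DESeq2 1.42.0 and limma 3.58.1 (voom, and a trend fit on log2(TPM + 1)), other scaling and filters, a prefix block, and libraries left out. The test was checked on simulated data.

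The genes and lists were chosen with earlier results of these data known. Named by rule were the main replication, mitotic and D cyclin or inhibitor genes by role, the 2 genes of each phase with the smallest p, Tshz1, and the 3 other cell cycle genes with the smallest p. Ttk, Kif11, Casc5, Hmmr, Nusap1, Birc5, Cdc45, Cks1b and E2f4, and any further genes in the closing section, were named after their values were seen. Coordinates are from GENCODE vM21 (GRCm38), and promoters are from RefSeq (GRCm38.p6).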

Additional observations from a re-analysis of the deposited data

Results flagged for a closer look

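In each group of 4 libraries, the lowest and the highest value were compared with the nearest other value, and the gap was divided by the range of the group (Dixon's ratio, read against its 95% critical value for 4 samples). For the 49 genes and both scores, 102 such groups were examined and 28 had a ratio above that value, where chance gives about 1 in 20. The lowest library was knockout NX in 20 of the 28, control NX in 7 and another library in 1.

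The G2/M score of knockout NX gave 0.929. Among G2/M genes in the knockout group, knockout NX stood apart for Cdk1 (ratio 0.993), Cenpe (0.974), Kif11 (0.968), Bub1 (0.967), Aurkb (0.954), Ccnb1 (0.944), Top2a (0.897), Birc5 (0.892), Hmmr (0.892), Ccna2 (0.878), Casc5 (0.874), Mki67 (0.871), Aurka (0.870), Tpx2 (0.870), Cenpf (0.868), Plk1 (0.865) and Bub1b (0.832). In the control group, control NX stood apart for Anln (0.934), Aurkb (0.895), Bub1 (0.864), Casc5 (0.861) and Nusap1 (0.857).

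Outside the G2/M genes, knockout NX was low for Ccnd2 (0.905) and Gmnn (0.880), and control NX for Pcna (0.910) and Ccnd2 (0.841). For Mcm4, knockout RM was low (0.910). The genes share their libraries, so these ratios are not separate observations.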

How the results depend on the processing

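Over all genes, edgeR's 5 calls at an adjusted p under 0.05 became 9 without composition factors, 19 without the low-count filter, 39 with DESeq2, 2 with limma-voom and 10 with limma on log2(TPM + 1). Leaving out 1 library at a time gave between 0 and 5 calls, with between 328 and 905 genes at an unadjusted p under 0.05. Leaving out both libraries of a prefix gave 3 calls without NX and 0 without NY, QT or RM, and leaving out control NX and knockout QT gave 0. At an unadjusted p under 0.05 these edgeR fits held 807, 430, 262, 470 and 353 genes. Without composition factors 43.7% of genes were fitted higher, against 49.4%. Both counts of genes fitted higher kept their direction under all 20 alternatives run, and both scores under the 18 that can move them (the block and the restriction to tested genes leave a score as it is), with 12 to 17 of the S phase genes and 22 to 25 of the G2/M genes fitted higher. The score differences ranged from 0.01 to 0.90 for S phase and from 0.07 to 1.65 for G2/M, lowest without control NX and knockout QT and highest without knockout NX. Over genes with whole counts only, an alternative chosen after seeing the data, they were 0.48 and 0.99. With NX left out, the 23 G2/M genes without overlap in CPM were 23 with RLE size factors, 17 without composition factors and 9 in TPM, scalings also chosen after seeing the data.

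When prefix entered edgeR's model as a replicate block, 28 genes were called (0.198%), 4 of them cell cycle genes: Pbk (log2 fold change 1.98, adjusted p = 0.0145), Ccna2 (1.28, 0.0432), Casc5 (1.18, 0.0432) and Ccnd2 (0.91, 0.0432). At an unadjusted p under 0.05, 18 of 25 G2/M genes and 3 of 19 S phase genes were higher, beside 3.65% of tested genes. Whether the prefix pairs the libraries was checked by the correlation of deviations from the group means, which was 0.38 for NX, 0.30 for NY, 0.07 for QT and 0.45 for RM. Knockout QT correlated nearly equally with control RM (0.072) and control QT (0.066), and the other knockouts best with the control of their own prefix. Each control correlated best with the knockout of its own prefix. The prefix was not treated as a pairing because the QT correlation was under 0.1 and the labels do not give its meaning.

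Of 45 named genes, 36 kept their direction under every alternative. Limma-voom turned Ccne1 (-0.85), Cdc20 (-0.40), Plk1 (-0.14), Aurka (-0.11) and Cdkn1c (0.60). Limma on TPM turned Plk1 (-0.024) and Cdc20 (-0.11), and the block turned Cdc20 (-0.038). Without both QT libraries Rrm1 (-0.13) and Ccne2 (-0.31) turned, and without both RM libraries Cdkn1c (0.058). Without control NX and knockout QT, Rrm1 was at -0.23, Ccne1 at -0.44, Ccne2 at -0.43, Gmnn at -0.25, Plk1 at -0.37, Cdc20 at -0.11 and Ccnd1 at -0.24. With 1 library left out, Rrm1 ranged from -0.16 to 0.51, Ccne1 from -0.16 to 1.08, Ccne2 from -0.16 to 1.68, Plk1 from -0.11 to 0.58 and Ccnd1 from -0.039 to 0.56. The cause was not tested. Tshz1 stayed lower throughout. Genes near the limit of 3 counts, such as Gmnn and Ccne1, are limited by depth.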
